A study of Mus musculus with 6 samples.

Results

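A group of 10 genes that control the decay of AU-rich and stem-loop messenger RNAs was followed in mouse bone marrow-derived macrophages: Zfp36, Zfp36l1, Zfp36l2, Zc3h12a, Zc3h12d, Elavl1, Rc3h1, Rc3h2, Khsrp and Hnrnpd. They were taken by symbol from a deposited table of 55335 genes, and each of the 10 had 1 row and passed the filter on low values. The macrophages were primary cells grown for 6 days from the marrow of male wildtype C57BL/6 mice aged 6 to 8 weeks. All 6 cultures received conditioned medium (CM), mixed 1:1, for 4 h. The medium came from acinar cells, the enzyme-secreting cells of the pancreas, after 5 h with 200 nM caerulein, a peptide that overstimulates them. The CM group (n = 3) had the medium alone, and the CM + 4OI group (n = 3) was treated with 4-octyl itaconate (4OI) at 200 µM as well. 4OI is itaconate, a metabolite of activated macrophages, with an octyl chain that lets it cross membranes. Untreated macrophages and macrophages with 4OI alone were not analysed here, so both groups are levels under conditioned medium.

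Many inflammatory messengers carry AU-rich elements or short stem-loops in the 3' untranslated region (UTR), and proteins that read these elements set how long the messenger lasts. The TTP family (Zfp36, Zfp36l1, Zfp36l2) binds AU-rich elements through zinc fingers and brings in the CCR4-NOT deadenylase. Regnase-1 (Zc3h12a) is an endoribonuclease that cuts at stem-loops, Zc3h12d is its relative, and the Roquins (Rc3h1, Rc3h2) bind stem-loops and recruit deadenylases. KSRP (Khsrp) and AUF1 (Hnrnpd) also bind AU-rich elements, while HuR (Elavl1) binds them and mostly stabilises the messenger. Several of these proteins are known to act on their own messengers.

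The elements themselves stand in the members' own 3' UTRs, and the following were chosen because they are the letters that these proteins read. In the longest protein-coding transcript of the GENCODE M21 annotation (mm10), Zfp36, Zfp36l1 and Zfp36l2 each held 3 copies of the heptamer TATTTAT, and 1 of the 3 in each gene lay within the nonamer TTATTTATT. Capitals mark the heptamer in the windows below, which lie on the minus strand at chr7:28376950-28376979 (Zfp36), chr12:80108166-80108195 (Zfp36l1), chr17:84184913-84184942 (Zfp36l2) and chr8:4285779-4285808 (Elavl1).
Zfp36: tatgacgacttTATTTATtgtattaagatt
Zfp36l1: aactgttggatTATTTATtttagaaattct
Zfp36l2: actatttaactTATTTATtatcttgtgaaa
Elavl1: aattatttattTATTTATttatttttattt
Among 1221 tested 3' UTRs of similar length to that of Zfp36 (774 nt), 20.6% held at least 1 heptamer and 0.655% held 3 or more. For Zfp36l1 (1835 nt) and Zfp36l2 (1822 nt), 3.4% and 3.36% of similar UTRs held 3 or more. The 3' UTR of Elavl1 (4218 nt) held 8 copies close together, most of them overlapping, a count reached by 0.254% of UTRs of similar length. Rc3h2 held 3 copies and Rc3h1 held 2, counts reached by 15.8% and 49% of UTRs of similar length. No copy was found in Zc3h12a, Zc3h12d, Khsrp or Hnrnpd. Of UTRs of similar length to these 4, 21.5, 42.5, 35.3 and 67.4% held at least 1. Over all 9270 tested protein-coding 3' UTRs, 29.8% held the heptamer and 7.94% the nonamer.

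Stem-loop matches were counted as a stem of at least 6 pairs, with G-U pairs allowed, closed by a loop of a pyrimidine, a purine and a pyrimidine. The 3' UTR of Zc3h12a (856 nt) held 3 such matches, at chr4:125119061-125119090, chr4:125118879-125118908 and chr4:125118655-125118684 on the minus strand. A 17-base match with the same letters stood in both Roquin genes, at chr1:160971653-160971682 on the plus strand in Rc3h1 and at chr2:37373801-37373830 on the minus strand in Rc3h2. Capitals mark stem and loop, and the Zc3h12a windows are named by the position of the match in the 3' UTR, counted from the stop codon.
Zc3h12a at 196: ccctgttGATACACATTGTATCtctgtcat
Zc3h12a at 377: gctagtTAGGCACCATGTGCCTGctctctg
Zc3h12a at 601: ggcgagATTTAAATATTTTAAATgaaaaag
Rc3h1: agccaaTAACTTCTGTGAAGTTGccttttc
Rc3h2: tttaatTAACTTCTGTGAAGTTGtttactc
Of the 9270 UTRs searched, the 17 bases shared by the Roquin genes occurred in 2, those of Rc3h1 and Rc3h2. The long UTR of Rc3h1 (7181 nt) held 9 matches in all and that of Rc3h2 (5331 nt) held 5. Of UTRs of similar length, 95.3% and 89.4% held at least 1. The Rc3h1 matches at 1999 and 2003 overlap within a repeat of T and A, so the 9 are not all separate. The UTR of Zc3h12d (2327 nt) held 2 matches. Among the AU-rich element binders, Hnrnpd (5429 nt) held 5, Elavl1 held 3, and Zfp36, Zfp36l2 and Khsrp (1642 nt) held 1 each, while Zfp36l1 held 0. A match describes the letters and is not a measured binding site, and 43.4% of all tested 3' UTRs held at least 1.

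**Figure D1:**
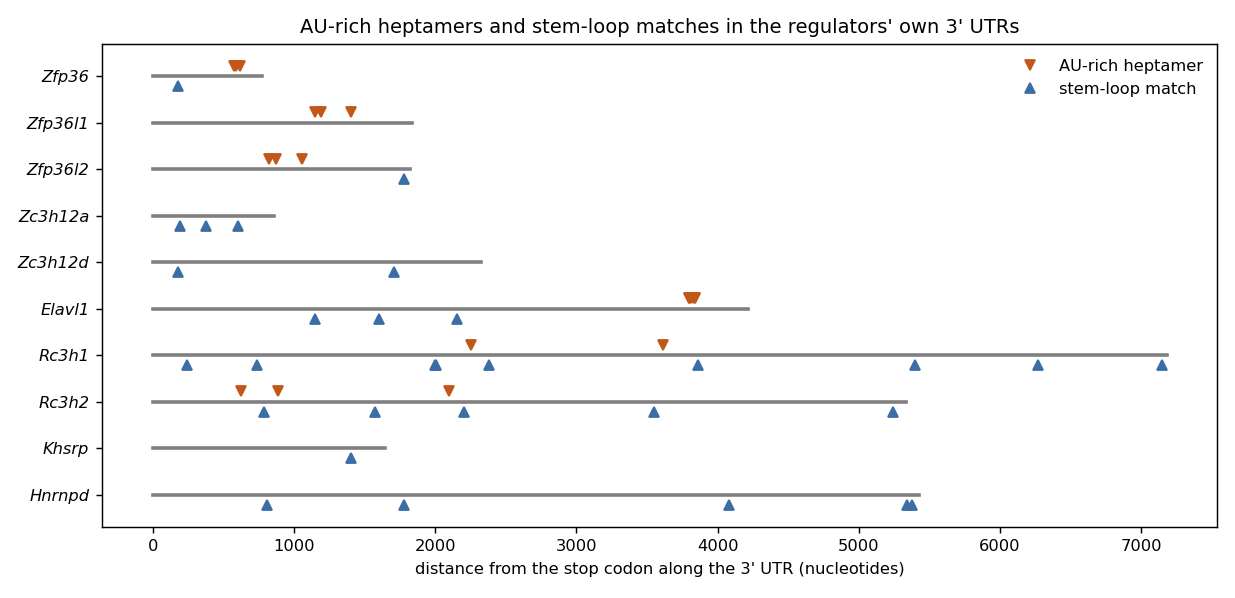
Positions of the AU-rich heptamer (downward triangles) and of stem-loop matches (upward triangles) along the 3' UTR of each of the 10 genes, with the distance from the stop codon in nucleotides on the x axis. The 3 TTP family genes each carry 3 heptamers, Elavl1 carries 8 close together, and Zc3h12a carries 3 stem-loop matches and no heptamer.

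The libraries held an estimated 18.0 to 25.3 M fragments (M, mega), and 10252 to 10658 genes reached 1 FPKM (fragments per kilobase of transcript and per mega of mapped fragments). All 8 macrophage markers were measured, and their summed level was 10614 to 11229.7 FPKM in CM and 10737 to 11369 FPKM in CM + 4OI, with 2 of the 8 called lower in limma. The 12 pancreatic acinar markers, of the cells that made the medium, summed to 9.26 to 15.1 FPKM in CM and 10.1 to 19.2 FPKM in CM + 4OI. Of these, 6 passed the filter and were tested, with 1 called higher. The T and NK cell markers summed to at most 0.123 FPKM, with Cd3d, Cd3g and Ncr1 at 0. The 8 neutrophil markers summed to 55.1 to 92.9 FPKM in CM and 58.9 to 73.3 FPKM in CM + 4OI, with Ly6g at 0 and none of the 4 tested called. The dendritic cell markers summed to 0.771 to 1.04 FPKM in CM and 0.481 to 0.512 FPKM in CM + 4OI, with Flt3 at 0. The part of these cell types in the results was not tested. Fibroblast markers were high in replicate 2 of both groups, at 78.2 FPKM in CM and 48.4 FPKM in CM + 4OI, against 11.3 to 14.6 FPKM in the other libraries. In bulk RNA, fewer cells of a type and less RNA per cell cannot be told apart.

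Of the 10 genes, 3 fell under 4OI (Zfp36, Zfp36l1, Zc3h12d), 2 rose (Zfp36l2, Rc3h1) and 5 were not called (Zc3h12a, Elavl1, Rc3h2, Khsrp, Hnrnpd). A gene was called at a Benjamini-Hochberg adjusted p under 0.05 in limma's test on log2(FPKM + 1), adjusted over all 10468 tested genes. The background was high: 32.5% of all tested genes were called, 19.3% higher and 13.2% lower, and 36.9% when replicate number entered the fit as a block. The groups did not overlap for the same 5 members that were called, where 49.0% of all tested genes did not overlap. The median log2 fold change was -0.03 over the 10 genes and 0.064 over all tested genes. The members' count of 5 in 10 is not read as particular to them against this background, and the values of single genes and the make-up of each family follow.

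**Figure D2:**
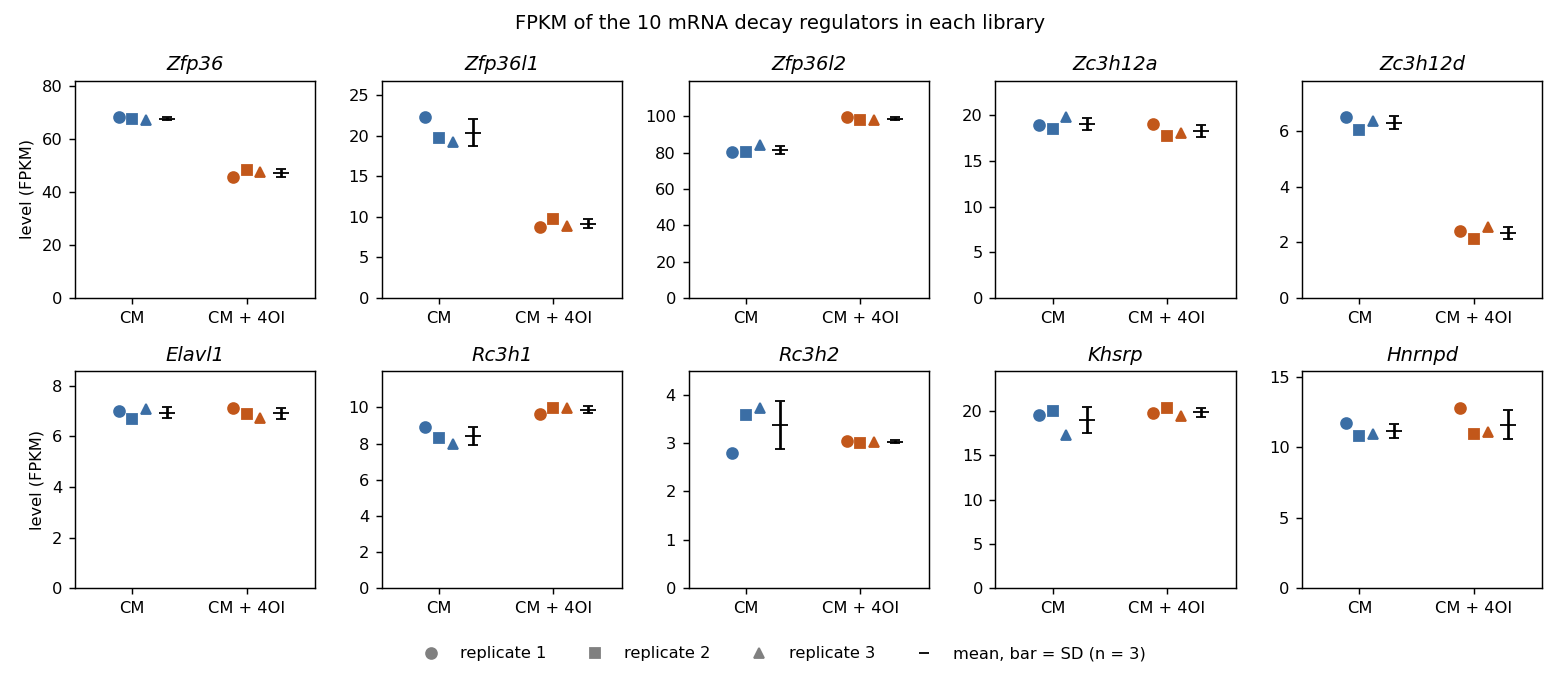
Level of each gene in FPKM (y axis, from 0) in the 3 CM and the 3 CM + 4OI libraries, with symbols for the replicate number and bars for mean and SD (n = 3). Zfp36, Zfp36l1 and Zc3h12d are lower in every CM + 4OI library than in every CM library, Zfp36l2 and Rc3h1 are higher, and the other 5 overlap.

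In CM the order of the levels, per transcript length, was Zfp36l2, Zfp36, Zfp36l1, Zc3h12a, Khsrp, Hnrnpd, Rc3h1, Elavl1, Zc3h12d and Rc3h2, from a mean of 81.7 FPKM down to 3.36 FPKM. The ranges of Zfp36l1 and Zc3h12a overlapped, as did those of Zc3h12a and Khsrp, and the other neighbours in this order did not overlap. In CM + 4OI the order was Zfp36l2, Zfp36, Khsrp, Zc3h12a, Hnrnpd, Rc3h1, Zfp36l1, Elavl1, Rc3h2 and Zc3h12d. There, the overlap among neighbours was between Rc3h1 and Zfp36l1. Zfp36l1 moved from rank 3 to rank 7, and Zc3h12d moved from rank 9 to rank 10.

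Zfp36 (chr7:28376784-28380253, minus strand, mm10) encodes tristetraprolin (TTP), the founding member of its family, whose loss in mice causes an inflammatory syndrome. Its level was 68.1, 67.5 and 67.1 FPKM in CM replicates 1 to 3 and 45.4, 48.2 and 47.5 FPKM in CM + 4OI replicates 1 to 3. The 3 CM libraries lay close together, and all 3 CM + 4OI libraries lay below them. The mean was 67.6 ± 0.507 FPKM in CM and 47.1 ± 1.47 FPKM in CM + 4OI (SD, n = 3), a level 1.44-fold lower. The log2 fold change on the FPKM + 1 scale was -0.51 (SE 0.038, 95% interval -0.61 to -0.42, limma adjusted p = 1.88e-04), and 11.8% of tested genes changed by at least as much.

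Zfp36l1 (chr12:80107754-80113013, minus strand), which encodes a TTP relative that also uses AU-rich elements, showed the larger fall of the pair of family members that fell. It measured 22.3, 19.7 and 19.2 FPKM in CM and 8.77, 9.76 and 8.88 FPKM in CM + 4OI. Every treated library was below 10 FPKM and every CM library above 19 FPKM. The mean went from 20.4 ± 1.67 to 9.14 ± 0.538 FPKM (SD, n = 3), 2.23-fold lower, with a log2 fold change of -1.08 (SE 0.071, 95% interval -1.25 to -0.91, limma adjusted p = 1.19e-04). Of the tested genes, 2.55% changed by at least as much. Exons of the antisense gene Gm26669, which was not analysed here, cover 55.9% of the exons of Zfp36l1. With no strand setting given in the sources used here, reads of the pair cannot be told apart.

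Zfp36l2 (chr17:84183931-84187947, minus strand), the third family member and the most abundant of all 10 genes, moved the other way. Its level was 80.6, 80.3 and 84.1 FPKM in CM and 99.6, 98.3 and 98.3 FPKM in CM + 4OI. All 3 treated libraries were above the highest CM library. The mean rose from 81.7 ± 2.09 to 98.7 ± 0.726 FPKM (SD, n = 3), a ratio of 1.21 and a log2 fold change of 0.27 (SE 0.036, 95% interval 0.18 to 0.36, limma adjusted p = 0.00193). A change of at least this size was found in 30.3% of tested genes.

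These opposite moves changed the make-up of the TTP family messages. Of the summed FPKM of the 3 genes, Zfp36l2 held 47.1, 47.9 and 49.3% in CM and 64.8, 62.9 and 63.5% in CM + 4OI, so it went from just under to well over the level of the other two together. Zfp36 held 39.8, 40.3 and 39.4% in CM and 29.5, 30.9 and 30.7% in CM + 4OI. Zfp36l1 held 13.1, 11.7 and 11.3% in CM and 5.71, 6.24 and 5.74% in CM + 4OI. The groups did not overlap for any of the 3 shares, and the differences were 15.6, -9.46 and -6.13 percentage points. The family sum changed less, from 169.6 ± 1.82 to 155 ± 1.30 FPKM (SD, n = 3). A two-sided exact permutation test gave p = 0.1 for each share and for the sum, the smallest value that 3 against 3 samples allow.

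**Figure D3:**
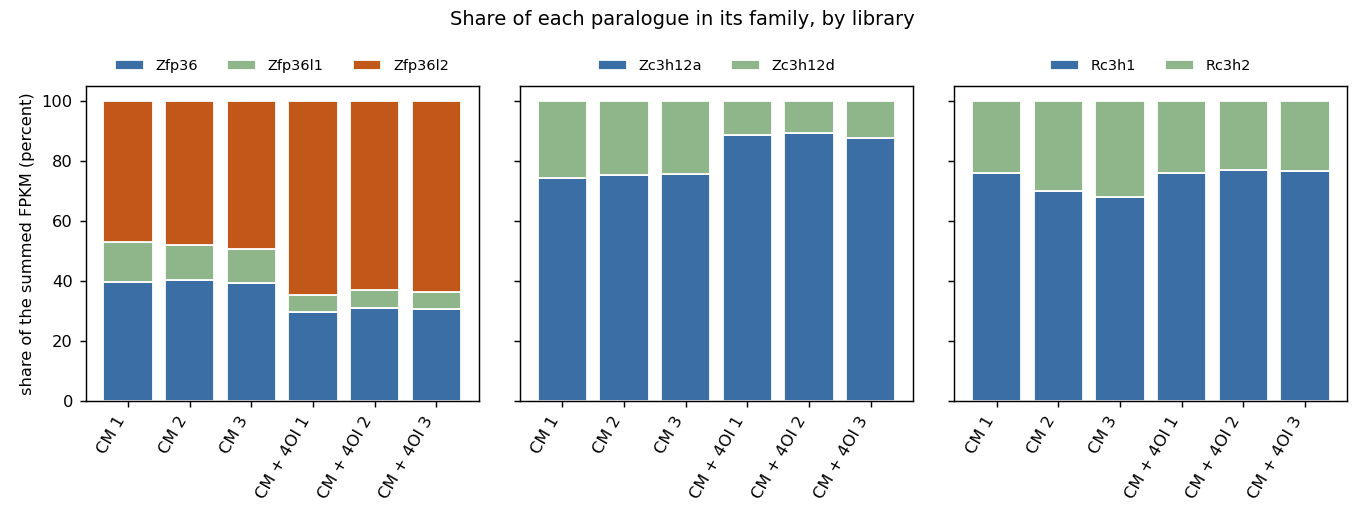
Share of each gene in the summed FPKM of its set (y axis, percent) in each library. The sets are the TTP family, the Regnase pair (Zc3h12a and Zc3h12d) and the Roquin pair. The Regnase pair leaves out the paralogue Zc3h12c. Zfp36l2 takes 47.1 to 49.3% in CM and 62.9 to 64.8% in CM + 4OI, and Zc3h12d takes 24.3 to 25.6% and 10.7 to 12.3%.

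Zc3h12a (chr4:125118423-125127840, minus strand) encodes Regnase-1, the ribonuclease that cuts stem-loops in inflammatory messengers and, as is known, in its own. It measured 18.9, 18.5 and 19.8 FPKM in CM and 19.0, 17.7 and 18.1 FPKM in CM + 4OI, and the groups overlapped. The means were 19.1 ± 0.677 and 18.3 ± 0.649 FPKM (SD, n = 3). The log2 fold change was -0.06 (95% interval -0.17 to 0.05, limma adjusted p = 0.361).

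Its relative Zc3h12d (chr10:7832470-7870396, plus strand) had, with Zfp36l1, the largest log2 fold changes of the 10 genes. On the FPKM + 1 scale, which of the pair was larger depended on the libraries used. As deposited Zc3h12d was (-1.13 against -1.08), and without CM + 4OI replicate 2 Zfp36l1 was (-1.12 against -1.08). The scale mattered too: with 0.1 FPKM added in place of 1 and all libraries kept, Zc3h12d fell more (-1.39 against -1.15). Its level was 6.50, 6.04 and 6.36 FPKM in CM and 2.39, 2.12 and 2.54 FPKM in CM + 4OI. Every treated library was under 3 FPKM and every CM library over 6 FPKM. The mean fell from 6.30 ± 0.235 to 2.35 ± 0.213 FPKM (SD, n = 3), 2.68-fold lower, with a log2 fold change of -1.13 (SE 0.065, 95% interval -1.28 to -0.97, limma adjusted p = 8.08e-05). Among tested genes, 2.26% changed by at least as much. An estimated 191 to 605 fragments lie behind these values, the smallest number among the called members. Zc3h12d held 25.6, 24.6 and 24.3% of the summed FPKM of the Regnase pair (Zc3h12a and Zc3h12d) in CM. It held 11.2, 10.7 and 12.3% in CM + 4OI (exact permutation p = 0.1, the smallest possible). This pair is not the whole family, as it leaves out the paralogue Zc3h12c, which rose from 3.63 to 5.97 FPKM.

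Rc3h1 (chr1:160906418-160974978, plus strand) encodes Roquin-1, which recognises stem-loops in messengers such as Tnf. It measured 8.94, 8.32 and 7.96 FPKM in CM and 9.64, 9.99 and 9.99 FPKM in CM + 4OI. The groups did not overlap, and the gap between the nearest libraries was under 1 FPKM. The mean rose from 8.41 ± 0.495 to 9.87 ± 0.205 FPKM (SD, n = 3), a ratio of 1.17, with a log2 fold change of 0.21 (SE 0.053, 95% interval 0.08 to 0.34, limma adjusted p = 0.0253). This call was lost when CM replicate 2 (limma adjusted p = 0.0649), CM replicate 3 (0.0718), CM + 4OI replicate 2 (0.0803) or CM + 4OI replicate 3 (0.0794) was left out. It was also lost with median-of-ratios scaling (0.14, limma adjusted p = 0.114) and with quantile normalization (0.16, limma adjusted p = 0.0683).

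Rc3h2 (chr2:37370069-37422903, minus strand), which encodes Roquin-2, was the least abundant member in CM, with 2.80, 3.57 and 3.73 FPKM, and measured 3.05, 2.99 and 3.03 FPKM in CM + 4OI. CM replicate 1 lay below all treated libraries and the other CM libraries lay above them. The means were 3.36 ± 0.497 and 3.03 ± 0.0322 FPKM (SD, n = 3), with a log2 fold change of -0.11 (95% interval -0.33 to 0.11, limma adjusted p = 0.401). Rc3h1 held 76.2, 70.0 and 68.1% of the summed FPKM of the Roquin pair in CM and 75.9, 77.0 and 76.7% in CM + 4OI, and these groups overlapped (exact permutation p = 0.200).

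The remaining AU-rich element binding proteins were not called. Elavl1 (chr8:4285382-4325413, minus strand), which encodes HuR, measured 7.02, 6.68 and 7.10 FPKM in CM and 7.14, 6.90 and 6.71 FPKM in CM + 4OI. The groups overlapped throughout, and the log2 fold change was -0.00 (95% interval -0.12 to 0.11, limma adjusted p = 0.976). Khsrp (chr17:57021051-57031522, minus strand), which encodes the decay-promoting protein KSRP, measured 19.6, 20.0 and 17.3 FPKM in CM and 19.8, 20.4 and 19.4 FPKM in CM + 4OI, with a log2 fold change of 0.06 (95% interval -0.09 to 0.21, limma adjusted p = 0.478). Hnrnpd (chr5:99955935-99978938, minus strand), which encodes AUF1, measured 11.7, 10.8 and 10.9 FPKM in CM and 12.8, 10.9 and 11.1 FPKM in CM + 4OI, with a log2 fold change of 0.05 (95% interval -0.12 to 0.22, limma adjusted p = 0.632). The low CM replicate 3 of Khsrp and the high CM + 4OI replicate 1 of Hnrnpd stood off from their groups. Exons of the antisense gene Gm17092 cover 5.24% of those of Hnrnpd, and Gm17092 itself measured 0.240 ± 0.0596 FPKM in CM and 0.214 ± 0.0616 FPKM in CM + 4OI. For the other members such overlap, outside Zfp36l1, was at most 3.6%.

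**Figure D4:**
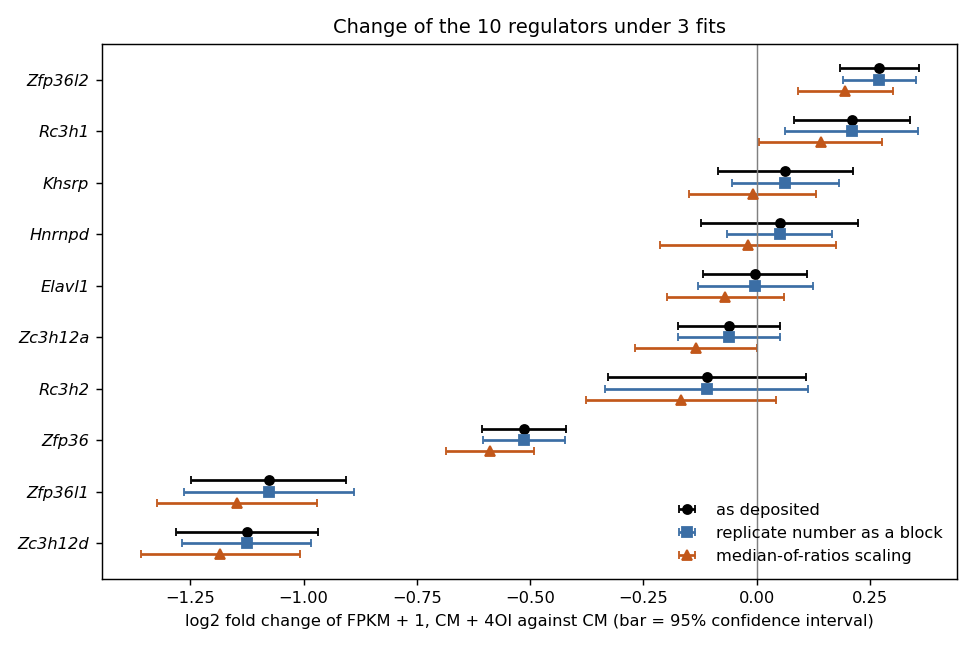
Log2 fold change of FPKM + 1, CM + 4OI against CM (x axis), with 95% confidence intervals, for each gene in 3 fits: the values as deposited, replicate number as a block, and median-of-ratios scaling. Zc3h12d, Zfp36l1 and Zfp36 lie well below 0 in all 3, while Rc3h1 goes from 0.21 as deposited to 0.14 with median-of-ratios scaling.

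Promoters of 9 of the 10 genes (all but Zfp36l2), from 250 bases before to 50 after the RefSeq start (GRCm38.p6), were searched on both strands for motifs of stimulus-responsive factors. Those of the 3 genes that fell are shown, with the matches in capitals, from chr7:28379179-28379478 (Zfp36, minus strand), chr12:80112964-80113263 (Zfp36l1, minus strand) and chr10:7832220-7832519 (Zc3h12d, plus strand).
Zfp36: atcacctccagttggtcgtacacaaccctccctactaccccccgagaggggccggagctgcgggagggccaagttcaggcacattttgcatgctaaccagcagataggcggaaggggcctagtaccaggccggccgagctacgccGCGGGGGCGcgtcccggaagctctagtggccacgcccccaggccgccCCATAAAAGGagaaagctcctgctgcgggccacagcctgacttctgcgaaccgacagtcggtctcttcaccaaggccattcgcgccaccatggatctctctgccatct
Zfp36l1: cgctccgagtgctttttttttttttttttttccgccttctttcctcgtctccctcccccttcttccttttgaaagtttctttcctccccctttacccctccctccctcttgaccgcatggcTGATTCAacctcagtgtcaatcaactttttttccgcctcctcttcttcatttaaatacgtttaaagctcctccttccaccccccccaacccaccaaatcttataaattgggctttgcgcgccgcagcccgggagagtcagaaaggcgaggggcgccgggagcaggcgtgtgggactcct
Zc3h12d: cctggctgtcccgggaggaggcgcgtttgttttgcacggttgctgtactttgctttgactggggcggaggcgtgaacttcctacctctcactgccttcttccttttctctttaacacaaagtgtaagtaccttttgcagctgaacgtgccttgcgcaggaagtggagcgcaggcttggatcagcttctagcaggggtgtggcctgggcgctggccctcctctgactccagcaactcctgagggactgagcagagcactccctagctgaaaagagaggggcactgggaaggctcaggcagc
The Zfp36 window held an EGR motif (GCGGGGGCG) at -105 and a CArG box, the element read by serum response factor, at -58. The Zfp36l1 window held an AP-1 motif (TGANTCA) at -129, and the Zc3h12d window held none of the motifs searched. Rc3h1 also held an AP-1 motif, at -133. Elavl1 held an NF-kB motif (GGGNNTTCC or GGGNNNTTCC) at -116, Hnrnpd a CArG box at +1, and Zc3h12a and Khsrp the CRE core (TGACG), which is also the first part of the full CRE (TGACGTCA). None of the 9 windows held the full CRE or the NRF2 motif (TGACNNNGC). Of 27025 promoters of the same length, 7.93% held AP-1, 2.92% EGR, 1.57% CArG, 9.68% NF-kB, 21% the CRE core, 1.88% the CRE and 12.5% the NRF2 motif.

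Of 26 tested genes for other proteins that bind AU-rich or stem-loop RNA, 4 rose and 4 fell. That is 30.8% called, near the 32.5% over all tested genes, and the median log2 fold change was 0.03 against 0.064 over all tested genes. Arid5a encodes a protein that stabilises stem-loop messengers against Regnase-1. The level of Arid5a fell from 2.48 ± 0.489 to 0.871 ± 0.119 FPKM (log2 fold change -0.89, limma adjusted p = 0.00212). Its CM + 4OI libraries, at 0.852, 0.997 and 0.762 FPKM, all lay under 1 FPKM, so it passed the filter through its CM level. N4bp1, whose protein has a nuclease domain related to that of Regnase-1, fell from 16.5 ± 0.265 to 11.6 ± 0.460 FPKM (-0.47, limma adjusted p = 4.89e-04). Zc3h12c, a further Regnase paralogue, rose from 3.63 ± 0.367 to 5.97 ± 0.323 FPKM (0.59, limma adjusted p = 0.00164), and Fubp1, a relative of Khsrp, rose from 7.43 ± 0.429 to 12.4 ± 1.02 FPKM (0.67, limma adjusted p = 7.98e-04). The Regnase paralogues thus differed in direction, with Zc3h12d lower, Zc3h12c higher and Zc3h12a not called. Without replicate 2 of both groups, 2 genes of this list were called higher, and with quantile normalization 7 were. With no filter on low values, 5 were called higher and 3 lower.

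Of 15 tested upstream regulators of these proteins, 6 rose and 1 fell, where 19.3% of all tested genes were called higher and 13.2% lower. The median log2 fold change was 0.18, against 0.064 over all tested genes. With median-of-ratios scaling, 4 genes of the list were called higher and 2 lower, and quantile normalization gave 6 and 2. Mapkapk2, the p38-activated kinase MK2 that phosphorylates TTP, fell from 74.5 ± 3.21 to 58.4 ± 1.38 FPKM (-0.35, limma adjusted p = 0.00182). Dusp1, the phosphatase that turns p38 off, rose from 26.1 ± 3.29 to 38.6 ± 4.05 FPKM (0.55, limma adjusted p = 0.011). Ywhaz, a 14-3-3 protein of the kind that binds phosphorylated TTP, rose from 106 ± 2.87 to 133 ± 5.63 FPKM (0.33, limma adjusted p = 0.00224). Upf1, a helicase that works with Regnase-1, rose from 18.3 ± 0.428 to 22.8 ± 0.726 FPKM (0.30, limma adjusted p = 0.00251). Mapk14, which encodes p38 itself, measured 11.0, 12.3 and 12.1 FPKM in CM and 8.61, 18.7 and 9.42 FPKM in CM + 4OI (-0.03, limma adjusted p = 0.946). CM + 4OI replicate 2 stood far above its group, and without it Mapk14 was called lower (-0.36, limma adjusted p = 0.0213), which made 2 genes lower in this list. Without replicate 2 of both groups, 3 genes of the list were called higher, and Dusp1 was no longer called (limma adjusted p = 0.0786). In that setting Mapk14 was not called either (-0.33, limma adjusted p = 0.0548).

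Among the genes of the general decay machinery, 9 of 21 in the deadenylation list, 3 of 17 in the decapping list and 2 of 20 in the exosome list were called, beside 32.5% of all tested genes. Of the 21 deadenylation genes, 5 rose and 4 fell, with a median of 0.05. Those with the largest changes were Fam46c, which fell from 14.2 ± 0.785 to 5.53 ± 0.278 FPKM (-1.21, limma adjusted p = 4.68e-05), Btg1, which rose from 46.8 ± 3.20 to 83.2 ± 4.61 FPKM (0.82, limma adjusted p = 2.52e-04), and Btg2, which fell from 7.54 ± 0.436 to 4.04 ± 0.917 FPKM (-0.77, limma adjusted p = 0.00498). Fam46a fell from 38.0 ± 0.775 to 23.0 ± 0.0158 FPKM (-0.70, limma adjusted p = 5.40e-05). Btg1 and Btg2 bind the CCR4-NOT deadenylase, whereas Fam46a and Fam46c encode poly(A) polymerases, which lengthen the tail that deadenylases shorten. The number called higher in this list was 3, 2, 2, 2 and 1 without CM replicate 1, CM replicate 3 and CM + 4OI replicates 1, 2 and 3, and 1 with median-of-ratios scaling.

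Among 17 genes of decapping and 5' to 3' decay, 1 rose and 2 fell. Ddx6, a helicase of the decapping complex, rose from 44.1 ± 1.13 to 56.4 ± 0.660 FPKM (0.35, limma adjusted p = 7.59e-04). Xrn1, the 5' to 3' exonuclease, fell from 8.69 ± 0.206 to 6.99 ± 0.266 FPKM (-0.28, limma adjusted p = 0.00549), and Dcp2, the decapping enzyme, fell from 29.2 ± 0.392 to 24.5 ± 0.368 FPKM (-0.24, limma adjusted p = 0.00314). Of 20 genes of the exosome and 3' to 5' decay, 1 rose and 1 fell. Zcchc6, a uridylyltransferase that marks messengers for decay, fell from 17.2 ± 1.11 to 10.9 ± 0.487 FPKM (-0.60, limma adjusted p = 6.12e-04). Dis3l, an exosome nuclease, rose from 4.04 ± 0.237 to 4.99 ± 0.269 FPKM (0.25, limma adjusted p = 0.0231), a call lost when CM replicate 1 or the treated replicate 2 or 3 was dropped (limma adjusted p = 0.0622, 0.0756 and 0.0513). The count of higher genes in the exosome list was 0 with CM replicate 1 or the treated replicate 2 left out, and 2 with CM replicate 2 or the treated replicate 1 or 3 left out. With replicate number as a block, 2 genes rose in each of these lists.

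The listed transcripts known as targets of the members were mostly lower. These lists were chosen with earlier results of these data known, so their counts are not independent of those results. Of 26 tested transcripts known to be bound by TTP, 4 rose and 16 fell, with a median log2 fold change of -0.50, where 19.3% of all tested genes were called higher and 13.2% lower. This list includes Zfp36 itself, and 10 of its 30 entries also stand in the list of Regnase-1 or Roquin targets. Dusp1, among the 4 that rose, was also counted among the upstream regulators. The 4 with the largest changes were the chemokine genes Cxcl10, Ccl7, Ccl2 and Ccl4, with log2 fold changes of -4.65, -3.46, -2.96 and -2.92. Of 14 tested targets of Regnase-1 or the Roquins, 1 rose and 8 fell, with a median of -0.45, beside the same background. Zc3h12a itself is among the 14. Il1b, Tnf, Cxcl1, Cxcl2 and Ier3, which fell, and Cxcl3, which rose, stand in both target lists. The lists are therefore not separate sets of genes. Il1b, the interleukin-1 beta gene, measured 10.4, 8.26 and 7.81 FPKM in CM and 2.09, 1.03 and 0.933 FPKM in CM + 4OI (-2.09, limma adjusted p = 4.89e-04). Tnf, the classic target of both TTP and Roquin, measured 69.4, 52.0 and 52.3 FPKM in CM and 25.6, 16.0 and 18.8 FPKM in CM + 4OI (-1.49, limma adjusted p = 0.00153). Replicate 1 was the highest of its group in both, and no treated library reached a CM library. Nfkbiz, an inflammatory gene regulator cut by Regnase-1, fell from 6.15 ± 0.463 to 2.50 ± 0.409 FPKM (-1.03, limma adjusted p = 4.79e-04). Cxcl2, a neutrophil chemokine, fell from 33.3 ± 4.41 to 20.4 ± 6.11 FPKM (-0.71, limma adjusted p = 0.0349), a call lost when any of CM replicates 1 to 3, or CM + 4OI replicate 2 or 3, was dropped (limma adjusted p = 0.101, 0.0575, 0.0738, 0.102 and 0.105). Without CM + 4OI replicate 2 or 3, 5 genes of this list were called lower. When CM replicate 2 was dropped or replicate number was a block, 2 were called higher. With no filter on low values, 1 was called higher and 6 lower. Lcn2, also among the 8 that fell, averaged 0.977 FPKM in CM + 4OI and passed the filter through its CM level. Levels of messenger RNA alone do not separate synthesis from decay, and the part of the regulators in these changes was not tested.

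**Figure D5:**
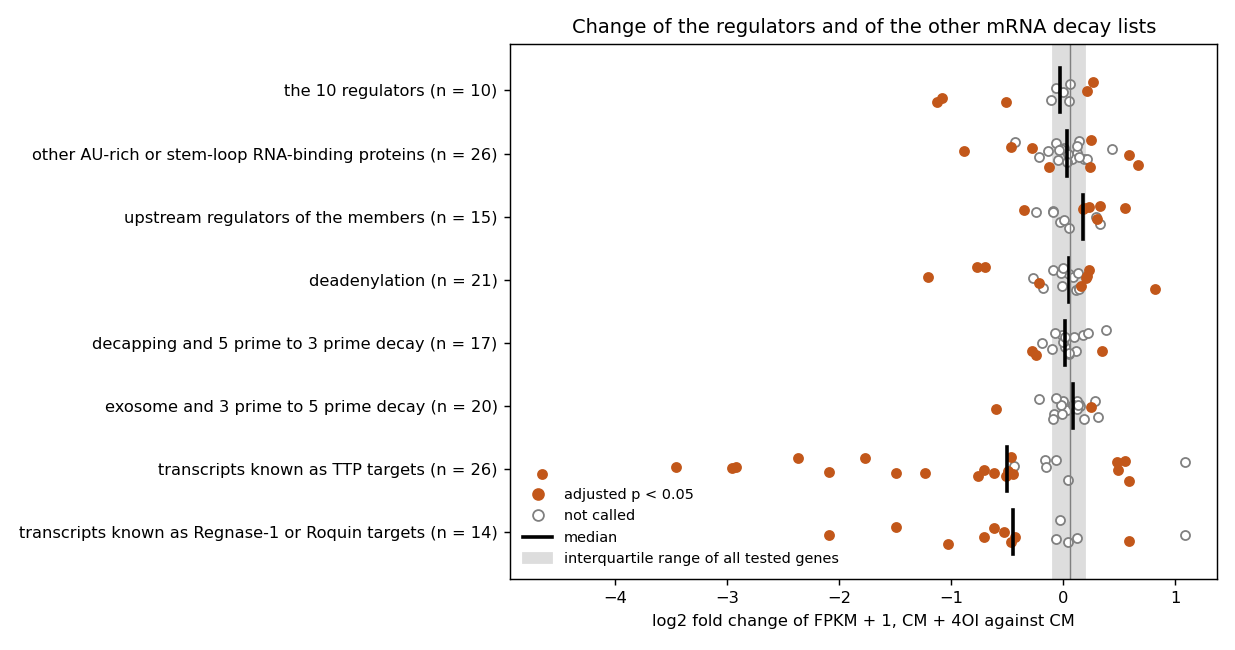
Log2 fold change of FPKM + 1, CM + 4OI against CM (x axis), of each tested gene in the 10 regulators and in 7 lists around them, with called genes filled, medians as bars and the interquartile range of all tested genes shaded. The medians of the regulators and of the lists other than the target lists lie between -0.03 and 0.18, the highest in the upstream regulators. Those of the decay machinery lists lie between 0.02 and 0.09, and those of the target lists at -0.50 and -0.45. Genes that stand in more than 1 list are shown in each. The lists were chosen with earlier results of these data known.

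Zfp36 and Zc3h12a were set against other genes for the likeness of their profile over the 6 libraries. Likeness was the Euclidean distance between centred log2(FPKM + 1) values. The 5456 candidates had an established symbol and a mean of at least 5 FPKM, so genes without such a symbol were left out. Nearest to Zfp36 were Heatr5a (distance 0.0413), Csf2rb2 (0.0523), an interleukin-3 receptor chain, and Atp8a1 (0.0546), a lipid flippase. Csf2rb2, for example, went from 132 ± 1.95 to 92.5 ± 2.23 FPKM (SD, n = 3). Nearest to Zc3h12a were Tmem168 (0.0415), the macrophage lysosomal protein gene Cd68 (0.0486) and the translation initiation factor gene Eif2a (0.0570), none of them called.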

How the data were processed

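RNA-seq libraries of 6 macrophage cultures were sequenced as 150 nt paired-end reads, per the labels' protocols, which give 3 independent cultures per group. The deposited values are FPKM, calculated by the authors. FastQC 0.11.2 and the build mm10 come from the submitters' processing notes. For the aligner, quantifier, annotation and strand setting, the sources used here give nothing. The groups were compared with limma 3.58.1 (R 4.3.3) on log2(FPKM + 1), two-sided and allowing for a trend of variance with level, over genes with a mean of at least 1 FPKM. Fold changes on this scale understate changes of low genes. The test was also checked on simulated data. Depth was estimated within each library from the steps of FPKM values of genes with a single annotated transcript, of at least 500 nt. The number of libraries limits the precision of the group comparisons. Tables, exact permutation tests and plots used Python 3.11.15, pandas 2.3.3, numpy 2.4.6, scipy 1.17.1 and matplotlib 3.10.9.

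The labels number the cultures of each group as biological replicates. They do not say whether cultures with the same number share an animal or a day. In the data, libraries with the same number deviated from their group means alike, with r = 0.344, 0.427 and 0.185, and at most 0.0262 between others, so the numbers were taken to pair the libraries and a fit with the number as a block was run. Printed values are from the fit without the block, the chosen main fit, unless the block is named, and the permutation tests treat the libraries as unpaired. The members and lists were chosen with earlier results of these data known. Named were all 10 members, up to 4 called genes with the largest change in each list, Mapk14, Mapkapk2 and Dusp1, and the 3 nearest profiles of Zfp36 and Zc3h12a. Alternatives were a pseudocount of 0.1 FPKM, no filter, a filter at 5 FPKM, median-of-ratios and quantile scaling, the replicate block, no trend, each library left out, and replicate 2 of both groups left out.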

Additional observations from a re-analysis of the deposited data

How the results depend on the processing

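Zfp36, Zfp36l1 and Zfp36l2 were called in the same direction in 14 of 14 alternatives and Zc3h12d in 13 of 13, since the filter at a mean of 5 FPKM removes it and Rc3h2. Their log2 fold changes ran from -0.59 to -0.43, -1.15 to -1.01, 0.20 to 0.36 and -1.39 to -1.08. Rc3h1 was called in 7 of 14. It was not called with median-of-ratios scaling (0.14), quantile normalization (0.16) or without replicate 2 of both groups (0.20, limma adjusted p = 0.152), and single libraries left out gave 0.18 to 0.25. The number of members called higher was then 1, and 1 to 2 over single libraries left out. The cause was not tested. The replicate block changed no member's call, including Rc3h1, and moved the calls over all genes from 3405 to 3859. Uncalled values changed sign for Khsrp (-0.01) and Hnrnpd (-0.02) with median-of-ratios scaling, and over single libraries left out for Elavl1 (-0.03 to 0.02), Hnrnpd (-0.02 to 0.09) and Mapk14 (-0.36 to 0.16).

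Over all genes, 2020 were called higher and 1385 lower as deposited, and 1371 and 1697 with median-of-ratios scaling, whose median log2 fold change was 0.002. Without CM + 4OI replicate 2, 1311 were called higher (1311 to 1855 over single libraries left out), and 1089 without replicate 2 of both groups. The genes of the other lists called higher numbered 20 as deposited, 12 with median-of-ratios scaling and 10 without replicate 2 of both groups, where fewer samples were tested in the last. Low genes rest on few fragments, 191 in the library with the fewest for Zc3h12d.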

Other observations

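The AU-rich heptamer was also counted in the 3' UTRs of all tested protein-coding genes. Of 6506 genes with no copy, 18.3% were called higher and 13.5% lower in CM + 4OI. Of 345 genes with 3 or more copies, 24.9% were called higher and 18% lower, and the median log2 fold changes of these groups of genes were 0.056 and 0.108. The median length of the 3' UTR moved with the count, from 835 nt in genes with no copy to 3293 nt in genes with 3 or more, and its part in the difference was not tested.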
